A study of Mus musculus with 6 samples.

Results

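The genes described here belong to 3 name families of endosomal sorting, Vps (vacuolar protein sorting), Snx (sorting nexin) and Chmp (charged multivesicular body protein). They were taken from an expression study of dermal cells from neonatal C57BL/6 mice, kept for 2 days either with forskolin and RepSox (group FR, both at 20 µM, 3 arrays) or without them (group DMSO, named in the labels for the solvent, 3 arrays). Forskolin is a plant diterpene that switches on adenylyl cyclase, which makes cyclic AMP. RepSox blocks the kinase of the TGF-β type I receptor. The compounds were given together, so their separate effects cannot be told apart, and the dermal cells are a mixed primary culture. Members were all genes whose symbol starts with Vps, Snx or Chmp followed by a digit, among probe sets with 1 gene symbol. For 3 genes with more than 1 probe set, the one with the highest mean over all 6 arrays was used, so these probe sets were selected on their level, which is given as a description, and the families themselves were chosen by name with earlier results of these data known. This gave 75 genes of the 19938 tested: 35 Vps, 30 Snx and 10 Chmp genes. Values are on the log2 scale of RMA expression, a change is FR minus DMSO, and n = 3 arrays in each group throughout.

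Endosomes sort the proteins that a cell takes up or sends from the Golgi. Retromer and retriever, helped by sorting nexins, return receptors to the cell surface or the Golgi, whereas the ESCRT machinery packs ubiquitin-tagged receptors into inner vesicles that lysosomes then degrade. The HOPS and CORVET complexes tether endosomes and lysosomes before fusion, the GARP and EARP complexes tether vesicles that come back from endosomes, and VPS13 proteins carry lipids between membranes in contact. In fibroblasts these routes handle growth factor receptors, integrins and lysosomal proteases.

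Many of the endosomal sorting genes, but not all, were lower with FR. Of the 75 genes, 36 fell, 1 rose and 38 did not pass (limma, adjusted p under 0.05 over all 19938 genes). The members' share that fell was 48%, while 14.5% of all genes tested fell, and 1.33% of members rose, against 13.4% of all genes. With arrays centred on their medians, 64.7% of all calls were lower in FR, against 52% as deposited. The median log2 change was -0.26 over the members and 0.05 over all genes, and 67 of the 75 members had a negative change. In 44 members every FR array lay below every DMSO array, as in 20.9% of all genes, and in 3 members every FR array lay above, as in 23% of all genes. The changes were mostly small: 5 members fell at least 2-fold, namely Snx24, Vps13a, Snx30, Snx7 and Snx9. Since no label ties the 3 arrays of a group to separate dishes or mice, p-values cover the spread between these arrays only, and that spread may be technical. In bulk RNA, fewer cells of a type and less RNA per cell cannot be told apart.

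**Figure D1:**
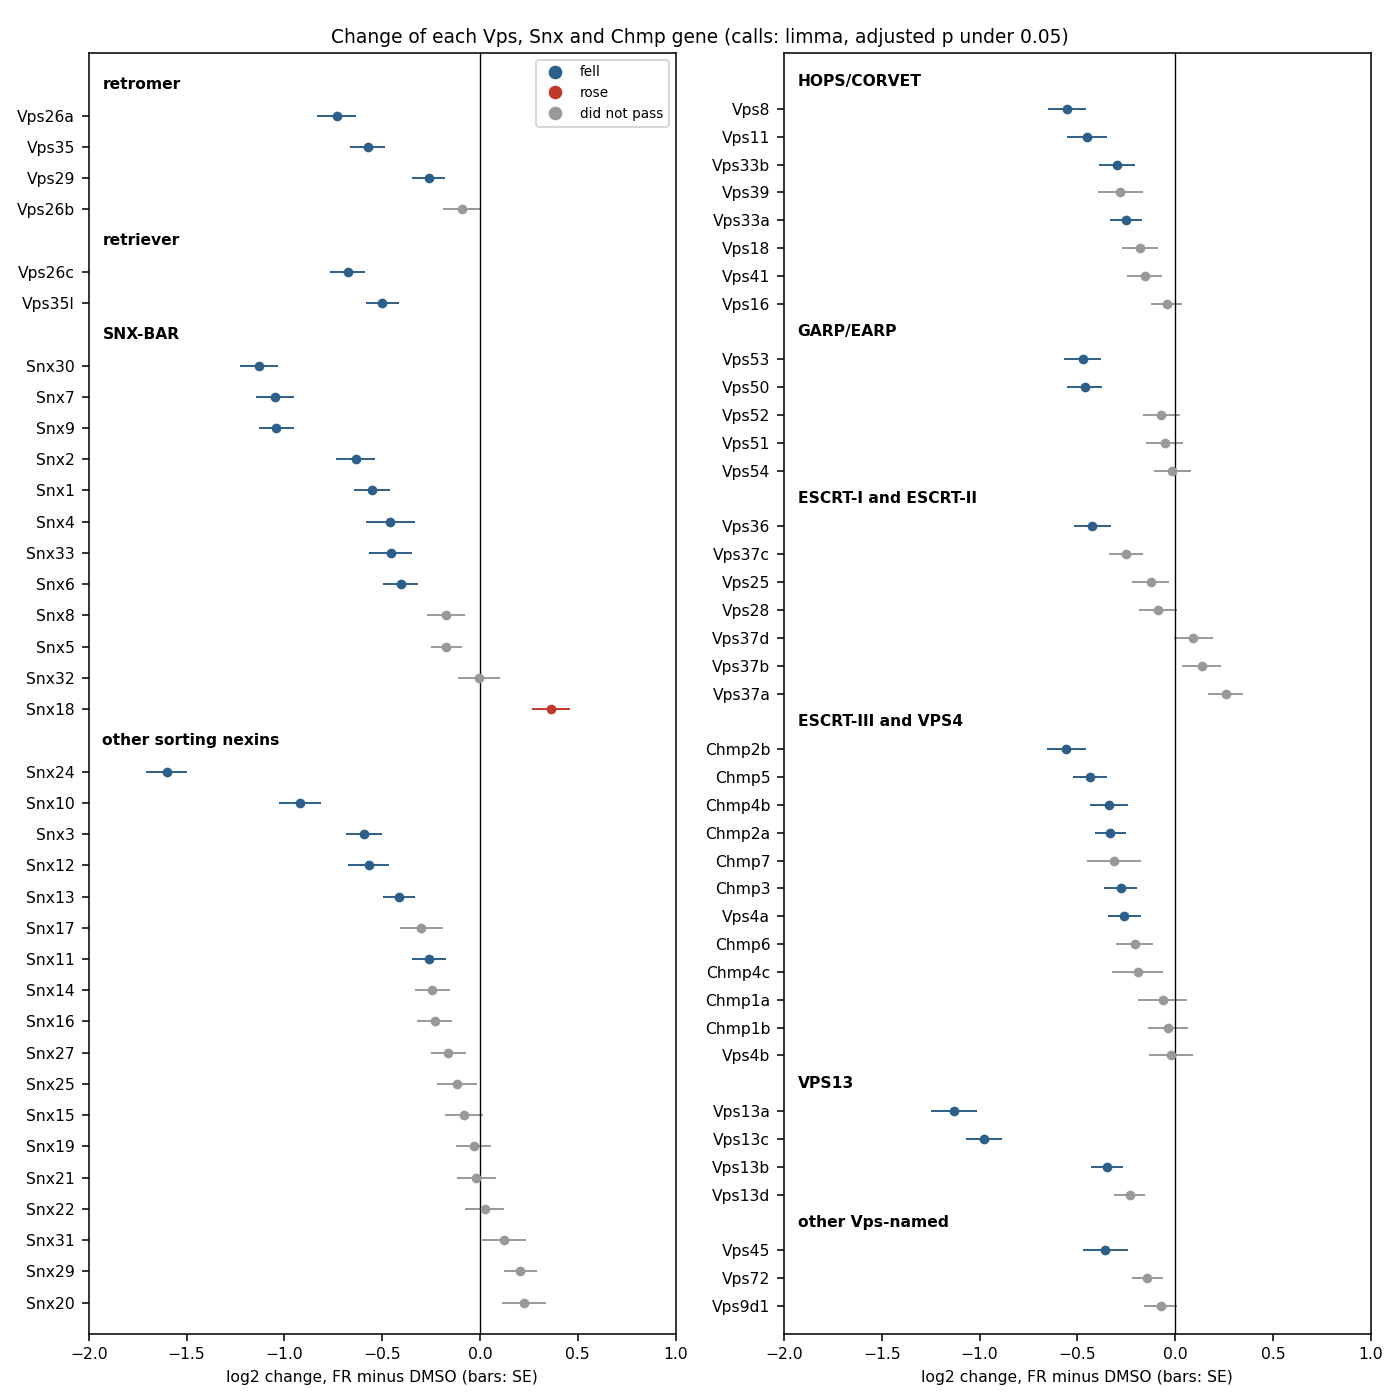
The horizontal axis gives the log2 change of each gene, FR minus DMSO, with its standard error as a bar, and genes are listed by complex. Blue points fell, the red point (Snx18) rose and grey points did not pass; 67 of 75 points lie left of 0, and Snx24 lies farthest left at -1.60.

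The share of genes that fell differed by level. Over all genes tested, 1.5% fell in the dimmest quartile of mean level, 6% in the second, 22.4% in the third and 28.1% in the brightest. Of the members, 39 lay in the brightest quartile, and 26 of them (66.7%) fell. In the third quartile 10 of 29 members (34.5%) fell. None of the 7 members in both dimmer quartiles did. In both upper quartiles the share of members that fell was above that of all genes in the quartile. Most genes of each complex or group of members counted below also lay in these upper quartiles. The shares of all genes there, 22.4% and 28.1%, are therefore the ones to set beside those counts. Chmp4c, Snx20, Snx22 and Snx31 had both group means under 5.65, the 95th percentile of the DMSO means of olfactory receptor genes, and are within that background range.

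**Figure D2:**
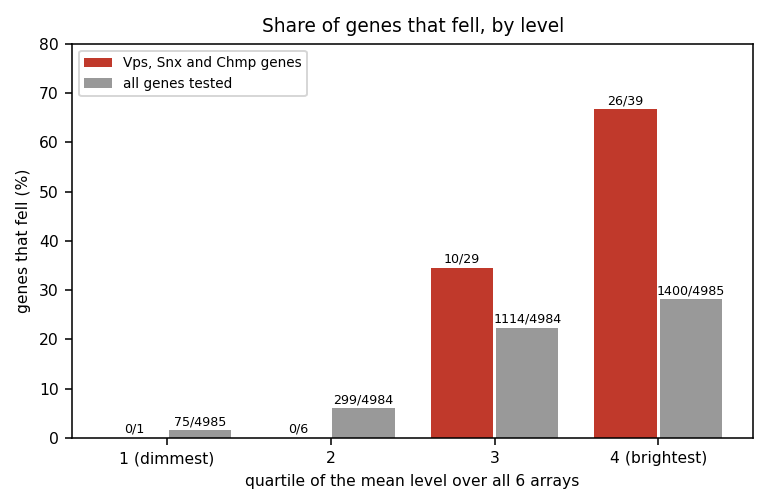
Bars give the percent of genes that fell at adjusted p under 0.05 in each quartile of the mean level over all 6 arrays, for the Vps, Snx and Chmp genes (red) and for all genes tested (grey), with counts above. In the brightest quartile the share was 66.7% of members and 28.1% of all genes.

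The arrays were not equally far apart. The standard deviation was larger among FR arrays than among DMSO arrays for 61 of 75 members and for 12919 of all 19938 genes. FR replicate 1 was the highest of the FR arrays for 26 of the 36 members that fell and the lowest for none. Over all 19938 genes it was the highest FR array for 6565 and the lowest for 6641. Without FR replicate 1, 36 members fell, 35 of them the same. Without FR replicate 3, 29 fell, and with any 1 DMSO array left out 28 did.

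Promoters are shown for members that passed and that held a motif searched for. RefSeq promoters (GRCm38.p6, 250 bases before to 50 after a start) were in the table for 49 of the 75 members. Both motifs read the same on either strand. The full cyclic AMP response element TGACGTCA was in the promoter of 1 of these 49 members (2.04%), Chmp2a, and in 2.03% of the 27025 genes in the table. The E-box core CACGTG, which MiT/TFE factors of lysosomal genes and many other helix-loop-helix factors bind, was in 7 of 49 members (14.3%) and in 8.09% of all genes in the table. The 7 were Vps26a, Vps33a and Vps50, which fell, Snx18, which rose, and Snx5, Snx8 and Vps16, which did not pass. A match describes these letters only. The sequences run 5′ to 3′ on the gene's strand, with the motif in capitals. Vps26a has a second listed promoter that overlaps this one and is not shown.
Vps26a (chr10:62486756-62487055, minus strand): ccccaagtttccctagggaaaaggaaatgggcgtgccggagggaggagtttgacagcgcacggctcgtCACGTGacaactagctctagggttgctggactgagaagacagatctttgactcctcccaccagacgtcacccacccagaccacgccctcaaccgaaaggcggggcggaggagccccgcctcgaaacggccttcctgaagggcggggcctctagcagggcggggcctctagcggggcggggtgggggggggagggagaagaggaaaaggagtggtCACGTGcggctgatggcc
Vps33a (chr5:123572966-123573265, minus strand): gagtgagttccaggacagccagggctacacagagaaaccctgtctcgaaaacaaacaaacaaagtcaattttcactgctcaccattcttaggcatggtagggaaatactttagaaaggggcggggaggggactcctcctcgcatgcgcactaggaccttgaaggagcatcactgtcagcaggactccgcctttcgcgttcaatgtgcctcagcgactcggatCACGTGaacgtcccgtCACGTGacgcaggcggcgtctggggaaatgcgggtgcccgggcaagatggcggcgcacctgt
Vps50 (chr6:3498143-3498442, plus strand): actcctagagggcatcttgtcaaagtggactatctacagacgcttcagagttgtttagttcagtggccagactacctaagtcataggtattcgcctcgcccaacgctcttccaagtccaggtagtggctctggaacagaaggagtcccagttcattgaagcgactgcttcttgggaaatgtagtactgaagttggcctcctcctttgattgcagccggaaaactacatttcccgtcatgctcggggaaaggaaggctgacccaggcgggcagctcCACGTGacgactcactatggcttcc
Chmp2a (chr7:13034728-13035027, minus strand): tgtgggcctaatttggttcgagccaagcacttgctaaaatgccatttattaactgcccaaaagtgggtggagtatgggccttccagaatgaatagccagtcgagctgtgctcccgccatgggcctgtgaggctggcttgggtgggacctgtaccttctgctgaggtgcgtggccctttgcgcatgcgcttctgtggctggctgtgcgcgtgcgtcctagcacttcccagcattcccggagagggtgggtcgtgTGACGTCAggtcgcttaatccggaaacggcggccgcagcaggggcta
Snx18 (chr13:113618515-113618814, minus strand): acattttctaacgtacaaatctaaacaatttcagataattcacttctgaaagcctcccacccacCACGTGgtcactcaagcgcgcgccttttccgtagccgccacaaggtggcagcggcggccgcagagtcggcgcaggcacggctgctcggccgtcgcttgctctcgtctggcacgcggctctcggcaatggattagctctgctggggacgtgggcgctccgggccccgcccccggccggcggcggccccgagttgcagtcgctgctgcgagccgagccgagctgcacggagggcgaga
In these windows the motif began 182 bases before and 33 bases after the start in Vps26a, 28 and 12 bases before it in Vps33a, and 186 bases before it in Snx18. It began at base 26 after the start in Vps50 and at base 4 in Chmp2a.

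The retromer core is a trimer of Vps35, Vps29 and either Vps26a or Vps26b. Of its 4 genes 3 fell (2 with quantile normalization or cyclic loess), with a median log2 change of -0.42. Vps26a, which holds the E-boxes shown above, had values of 8.09, 7.80 and 7.79 on the FR arrays, against 8.62, 8.65 and 8.60 on the DMSO arrays. It fell by 0.73 (SE 0.0983, adjusted p = 0.000253 by limma), and the groups did not overlap. Vps35, the scaffold of the complex, had 9.08, 8.89 and 9.08 with FR and 9.67, 9.52 and 9.59 with DMSO, and fell by 0.57 (SE 0.0904, adjusted p = 0.000799 by limma). Vps29 had 9.54, 9.46 and 9.48 with FR and 9.72, 9.69 and 9.85 with DMSO. It fell by 0.26 (adjusted p = 0.0393 by limma), and this call was lost when any array other than FR replicate 1 was left out (adjusted p up to 0.153). Vps26b had 9.10, 9.00 and 8.80 with FR and 9.12, 9.06 and 9.01 with DMSO. Its groups overlapped, and the log2 change was -0.09 (SE 0.0957, adjusted p = 0.489 by limma).

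Retriever recycles integrins and other receptors with Vps29 as a shared subunit. Both of its own genes fell. Vps26c had 7.33, 7.34 and 7.12 with FR and 7.98, 7.96 and 7.88 with DMSO, and fell by 0.68 (SE 0.0906, adjusted p = 0.000251 by limma). Vps35l fell by 0.50 (adjusted p = 0.00124 by limma). Among 12 partner genes of the Commander assembly around retriever, 4 fell (33.3%) and 0 rose (median -0.24). All 12 lay in the third and brightest level quartiles, where 22.4% and 28.1% of all genes fell, so the count was near that share. With arrays centred on their medians 7 fell and 0 rose, and with quantile normalization or cyclic loess 3 fell and 1 rose. The 4 were the COMM-domain genes Commd4 (-0.58), Commd10 (-0.57) and Commd1 (-0.31) and the linker gene Ccdc93 (-0.32). Of 9 genes of the actin-nucleating WASH complex and other retromer partners, 6 fell (66.7%) and 0 rose (median -0.38). All 9 also lay in the third and brightest level quartiles, with the shares of 22.4% and 28.1% given above. Ankrd50 fell by 0.69 and the WASH subunit gene Washc2 by 0.67. The J-domain gene Dnajc13 fell by 0.60 and the Rab GTPase-activating gene Tbc1d5 by 0.43. Ehd1 (-0.13) and the WASH subunit genes Washc1 (-0.08) and Washc3 (-0.02) did not pass.

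Sorting nexins with a BAR domain, which senses and bends membrane into tubules, fell in 8 of 12 cases and rose in 1 (median -0.46). Snx30 and Snx7 encode alternative partners of Snx4 in recycling and autophagy. Snx30 had 7.17, 7.25 and 6.97 on FR arrays, against 8.28, 8.33 and 8.16 on DMSO arrays, and was 2.18-fold lower (log2 change -1.13, SE 0.0972, adjusted p = 1.03e-05 by limma). Snx7 had 7.57, 7.61 and 7.40 with FR and 8.71, 8.53 and 8.48 with DMSO, and was 2.07-fold lower (adjusted p = 1.68e-05 by limma). Every FR array lay below every DMSO array for both genes. Snx4 itself fell by 0.46 (adjusted p = 0.019 by limma) but did not pass once DMSO replicate 3 was left out (adjusted p = 0.065).

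Snx9 binds dynamin and actin regulators in clathrin-mediated uptake. It had 8.60, 8.49 and 8.44 with FR and 9.55, 9.66 and 9.45 with DMSO, and was 2.06-fold lower (log2 change -1.04, SE 0.0894, adjusted p = 9.99e-06 by limma). Its close relatives are Snx18 and Snx33. Snx33 fell by 0.46 (adjusted p = 0.0101 by limma). Snx18, which takes part in endocytosis and autophagosome formation, had 7.76, 7.89 and 7.59 with FR and 7.29, 7.48 and 7.38 with DMSO. It was the 1 member that rose (log2 change 0.36, SE 0.0986, adjusted p = 0.0193 by limma), and its groups did not overlap. The call was lost without FR replicate 2, DMSO replicate 1 or DMSO replicate 3 (adjusted p up to 0.0778).

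The nexins that form coat dimers for retrograde transport are Snx1 or Snx2 with Snx5 or Snx6. Snx2 had 9.31, 9.02 and 8.97 with FR and 9.73, 9.68 and 9.79 with DMSO, and fell by 0.64 (SE 0.101, adjusted p = 0.000869 by limma). Snx1 had 8.29, 8.05 and 8.06 with FR and 8.70, 8.69 and 8.66 with DMSO, and fell by 0.55 (adjusted p = 0.00111 by limma). In both, FR replicate 1 lay nearest to the DMSO arrays, and still below each of them. Snx6 fell by 0.41 (adjusted p = 0.00721 by limma). Snx5, whose groups did not overlap, had a log2 change of -0.17, Snx8 had -0.17 and Snx32 had -0.01, and none of them passed.

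Of the 18 sorting nexins without a BAR domain, 6 fell (33.3%) and 0 rose (median -0.20). Most of the 18 lay in the third and brightest level quartiles, where 22.4% and 28.1% of all genes fell. The count was thus near that share. The largest fall of any member was that of Snx24, a small nexin with little beyond its phosphoinositide-binding PX domain. Snx24 had 6.11, 5.73 and 5.83 on FR arrays, against 7.56, 7.43 and 7.47 on DMSO arrays, and was 3.03-fold lower (log2 change -1.60, SE 0.106, adjusted p = 1.53e-06 by limma). Its FR values came close to the background level of 5.65. Snx10, which acts on late endosomes and in bone-resorbing osteoclasts, had 6.15, 5.94 and 5.73 with FR and 6.85, 6.89 and 6.85 with DMSO, and was 1.89-fold lower (SE 0.107, adjusted p = 9.32e-05 by limma). Its groups did not overlap, and the FR arrays were more widely spread (SD 0.21) than the DMSO arrays (SD 0.0222).

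Snx3 guides retromer to cargo such as the Wnt carrier Wls, and Snx12 is its nearest relative. Snx3 had 8.87, 8.64 and 8.73 with FR and 9.43, 9.23 and 9.36 with DMSO, and fell by 0.59 (SE 0.0937, adjusted p = 0.00081 by limma). Snx12 had 8.31, 7.94 and 8.14 with FR and 8.62, 8.78 and 8.70 with DMSO, and fell by 0.57 (SE 0.105, adjusted p = 0.00228 by limma). Neither gene's groups overlapped. Wls, a cargo gene outside the families, fell by 0.40. Of the nexins with an RGS domain, Snx13 fell by 0.41 (adjusted p = 0.00345 by limma), while Snx14 at -0.24 and Snx25 at -0.12 did not pass. The groups of Snx14 did not overlap (adjusted p = 0.0639 by limma). Snx14 passed as lower without FR replicate 2, with arrays centred on their medians, with dim genes left out and with a variance trend. Snx25 passed under no alternative. Snx19, which is related to these nexins but lacks the RGS domain, had -0.03 and did not pass. Snx11 fell by 0.26 (adjusted p = 0.044), a call lost when any array other than FR replicate 1 was left out (adjusted p up to 0.157, limma).

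The cargo adaptor genes Snx17 and Snx27 did not pass. Snx17, which binds receptors for retriever, had a log2 change of -0.30 (adjusted p = 0.0675 by limma) and passed without FR replicate 1 and with 3 other settings, among them centring on array medians. Snx27, which links receptors to retromer, had -0.16 (adjusted p = 0.216 by limma). The other nexins that did not pass were Snx16 at -0.23, Snx15 at -0.08, Snx21 at -0.02, Snx22 at 0.02, Snx31 at 0.12, Snx29 at 0.21 and Snx20 at 0.22. The other probe set of Snx29 gave 0.16.

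**Figure D3:**
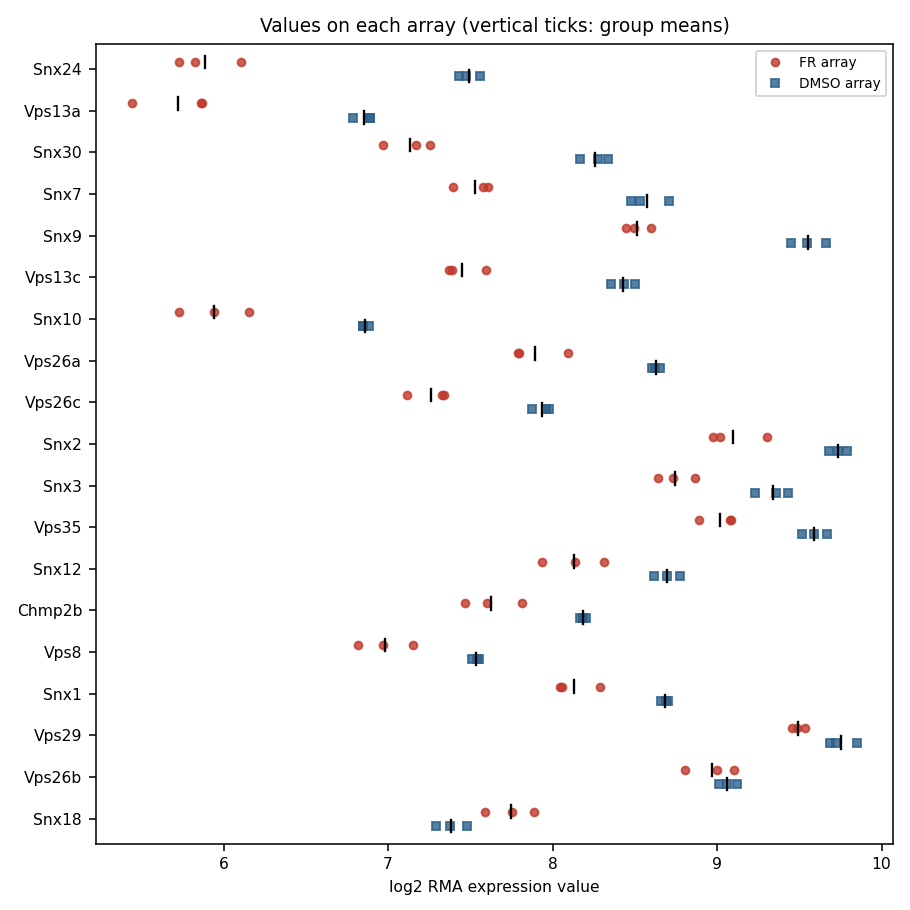
The horizontal axis gives the log2 RMA expression value on each FR array (red circles) and each DMSO array (blue squares) for the 16 members with the largest changes among those that passed, the other retromer genes and Snx18, with group means as vertical ticks. The FR arrays lie left of the DMSO arrays for every gene shown except Vps26b, whose groups overlap, and Snx18, whose FR arrays lie right.

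Tethering genes fell in part. Of 7 genes of HOPS and CORVET, 3 fell and 0 rose (median -0.25). With Vps33b, a relative of the subunit Vps33a that acts in a separate complex, 4 of 8 fell (median -0.27). Vps8, a subunit of CORVET, which acts on early endosomes, had 7.15, 6.97 and 6.81 with FR and 7.55, 7.54 and 7.51 with DMSO, and fell by 0.55 (SE 0.0976, adjusted p = 0.00166 by limma). Vps11, a subunit of both complexes, fell by 0.45 (adjusted p = 0.00793 by limma). Vps33a, the fusion regulator whose promoter is shown above, fell by 0.25 (adjusted p = 0.0438), and Vps33b, which works with Vipas39, fell by 0.30 (adjusted p = 0.0357, limma). The call of Vps33a was lost whichever 1 array was left out (adjusted p up to 0.161), and that of Vps33b without FR replicate 3 or any DMSO array (adjusted p up to 0.108). With quantile normalization or cyclic loess neither passed. The subunits found in HOPS only, Vps39 and Vps41, had log2 changes of -0.28 and -0.16 that did not pass, and the shared subunits Vps18 and Vps16 had -0.18 and -0.04.

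GARP and EARP share Vps51, Vps52 and Vps53, and differ in the fourth subunit, Vps54 in GARP and Vps50 in EARP. Of these 5 genes 2 fell (40%), with a median log2 change of -0.07. All 5 lay in the third and brightest level quartiles, where 22.4% and 28.1% of all genes fell. Vps53 fell by 0.47 (7.69 ± 0.139 with FR and 8.16 ± 0.0585 with DMSO, adjusted p = 0.00339 by limma), and Vps50 by 0.46 (adjusted p = 0.003 by limma). Vps52, Vps51 and Vps54 did not pass, with log2 changes of -0.07, -0.05 and -0.01. Vps45, a partner of fusion proteins on early endosomes, fell by 0.36 (adjusted p = 0.0423), a call lost when any array other than FR replicate 1 was left out (adjusted p up to 0.139, limma). Among 15 fusion and tethering partners outside the families, 8 fell (53.3%, against 14.5% of all genes) and 0 rose (median -0.36). All 15 lay in the third and brightest level quartiles, where 22.4% and 28.1% of all genes fell. Among the 8, the SNARE genes Vti1b and Vamp8 fell by 0.71 and 0.52. The lysosome adaptor gene Plekhm1 fell by 0.45 and the SNARE gene Stx6 by 0.44. Vps72, which encodes a chromatin remodelling subunit and shares the name alone, and Vps9d1 had log2 changes of -0.14 and -0.07 that did not pass.

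Of the 7 genes of ESCRT-I and ESCRT-II, which gather cargo, 1 fell (14.3%, near the 14.5% of all genes, and 2 with arrays centred on their medians). That gene was Vps36, the ubiquitin-binding subunit of ESCRT-II, which fell by 0.42 (adjusted p = 0.00649 by limma). The log2 change was -0.13 for Vps25 and -0.09 for Vps28, and among the 4 alternative Vps37 subunits it was -0.25 for Vps37c, 0.09 for Vps37d, 0.14 for Vps37b and 0.26 for Vps37a. None of these passed. Vps37a lay just outside the threshold (adjusted p = 0.0523 by limma) and passed as higher without FR replicate 2 and with 4 other settings, among them quantile normalization.

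Of the 12 genes of ESCRT-III and VPS4, which cut the vesicle neck and take the filament apart, 6 fell and 0 rose (median -0.27), and all 12 changes were negative. With quantile normalization 4 fell and 10 changes were negative, and with cyclic loess 3 and 10. Chmp2b, an ESCRT-III subunit gene mutated in a human frontotemporal dementia, had 7.81, 7.47 and 7.60 on FR arrays, against 8.19, 8.17 and 8.20 on DMSO arrays, and fell by 0.56 (SE 0.0985, adjusted p = 0.00173 by limma). The DMSO arrays lay within a narrow range above all FR arrays. Chmp5 fell by 0.44 (adjusted p = 0.00339 by limma), and Chmp2a, whose promoter is shown above, by 0.33 (adjusted p = 0.0101 by limma). Chmp4b, a main filament subunit, fell by 0.34, Chmp3 by 0.28 and the ATPase gene Vps4a by 0.26. The last of these calls depended on single arrays. That of Chmp4b was lost without FR replicate 2 or 3 or DMSO replicate 1 or 2 (adjusted p up to 0.11), that of Chmp3 without FR replicate 2 or any DMSO array (up to 0.115), and that of Vps4a when any 1 array other than FR replicate 1 was left out (up to 0.136).

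The members without a call had log2 changes of -0.31 for Chmp7, which acts at the nuclear envelope, -0.21 for Chmp6, -0.19 for Chmp4c, -0.06 for Chmp1a, -0.04 for Chmp1b and -0.02 for Vps4b. The other probe set of Vps4b gave -0.23 (adjusted p = 0.0789 by limma), which did not pass either. Among 13 ESCRT partner genes measured, 6 fell (46.2%, against 14.5% of all genes) and 1 rose (median -0.23). All 13 lay in the third and brightest level quartiles, where 22.4% and 28.1% of all genes fell. Stam2, which gathers ubiquitin-tagged cargo, fell by 0.63, Pdcd6ip, which encodes the adaptor Alix, by 0.54, the Vps4 cofactor gene Vta1 by 0.54 and the phosphatase-like gene Ptpn23 by 0.54. The 1 that rose was the ESCRT-I gene Mvb12b (0.39).

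VPS13 proteins are long channels for lipids at contacts between organelles. Of 4 genes 3 fell (median -0.66), and all 4 fell with arrays centred on their medians. Vps13a, whose human counterpart is mutated in chorea-acanthocytosis, had 5.86, 5.44 and 5.87 with FR and 6.79, 6.89 and 6.89 with DMSO, and was 2.19-fold lower (log2 change -1.13, SE 0.117, adjusted p = 4.13e-05 by limma). FR replicate 2 lay under the background level of 5.65. Vps13c, which joins the endoplasmic reticulum to late endosomes, had 7.60, 7.37 and 7.39 with FR and 8.50, 8.44 and 8.35 with DMSO, and was 1.97-fold lower (SE 0.0924, adjusted p = 2.04e-05 by limma). Vps13b, a Golgi protein gene, fell by 0.35 (adjusted p = 0.0101 by limma). Vps13d had a log2 change of -0.23 with groups that did not overlap (adjusted p = 0.0528 by limma), and its other probe set gave -0.01 (adjusted p = 0.932).

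Related genes were set side by side in 22 pairs. With 3 arrays per group an exact permutation test of the difference between the 2 changes cannot go below p = 0.1, two-sided over 20 assignments. No pair could therefore pass at 0.05, whatever its difference (the smallest p adjusted over the pairs was 0.22), and the differences are given with their standard errors as a description. In 10 of the 22 pairs the per-array difference did not overlap between FR and DMSO. Of all single genes, 20.9% had every FR array below every DMSO array and 23% had every FR array above. The share among other pairs of genes was not computed, so this count is a description only. The widest gaps were those of Snx24 against Snx22 (-1.60 and 0.02, with Snx22 in the background range), Snx9 against Snx18 (-1.04 and 0.36), Snx10 against Snx11 (-0.92 and -0.26) and Vps26a against Vps26b (-0.73 and -0.09). The difference between the changes of Snx9 and Snx18 was -1.40 (SE 0.0964, exact permutation p = 0.1), and that of Vps26a and Vps26b was -0.64 (SE 0.071, exact permutation p = 0.1). Vps50 and Vps54, the subunits that tell EARP from GARP, differed by -0.45 (SE 0.0782, exact permutation p = 0.1). The smallest differences were -0.02 for Snx3 and Snx12, -0.03 for Chmp1a and Chmp1b and 0.05 for Vps33a and Vps33b, and Snx7 and Snx30 differed by 0.08.

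**Figure D4:**
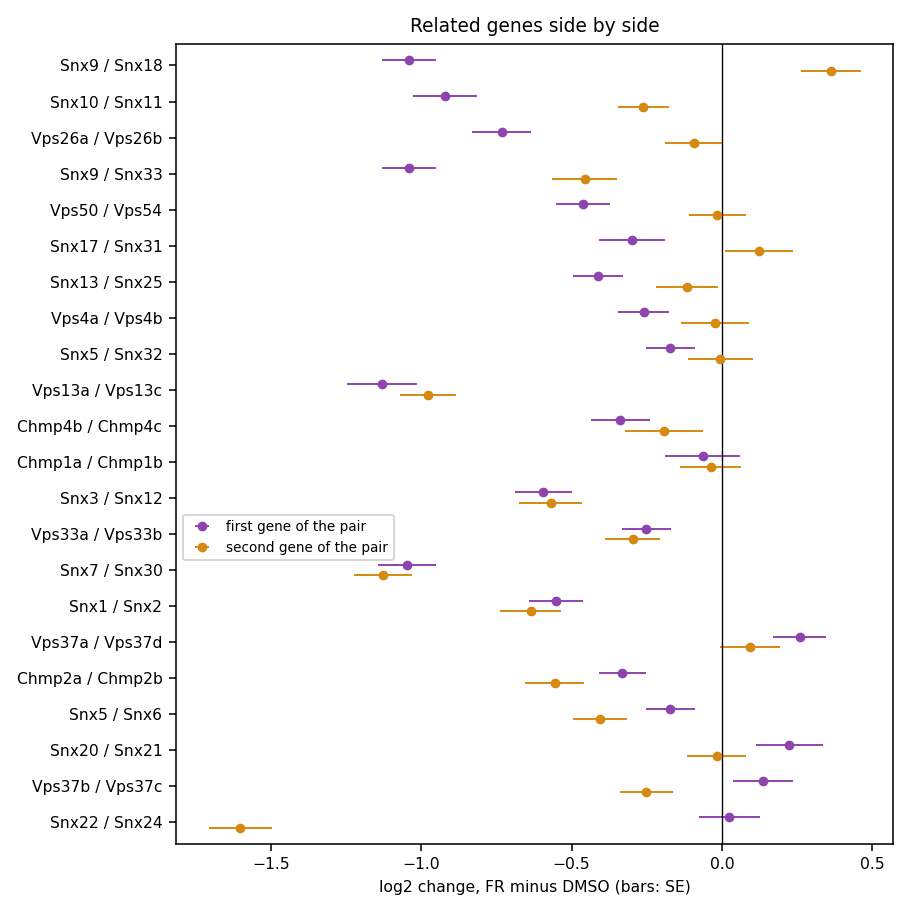
Each row gives the log2 changes, FR minus DMSO, of the first (purple) and second (orange) gene of a related pair, with standard errors as bars, ordered by the difference between them. Snx9 and Snx18 lie on opposite sides of 0 at -1.04 and 0.36, while Snx3 and Snx12 lie at -0.59 and -0.57.

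Other genes of the route were counted from lists of 98 measured genes in all, of which 46 fell, 7 rose and 45 did not pass. Of all genes tested, 14.5% fell and 13.4% rose. Most list members lay in the third and brightest level quartiles, where 22.4% and 28.1% of all genes fell. Of 13 endosomal phosphoinositide enzymes, which make or remove the lipids that PX domains bind, 5 fell (38.5%) and 0 rose (median -0.22). The phosphatase gene Fig4 and the kinase gene Pikfyve, which act in 1 complex, both fell by 0.50, Mtmr1 by 0.38 and Ocrl by 0.37. Of 23 lysosomal hydrolase and membrane protein genes, 14 fell (60.9%) and 2 rose (median -0.40). Ctsk, a collagen-degrading cathepsin gene, was 3.12-fold lower (8.74 ± 0.182 with FR and 10.38 ± 0.11 with DMSO, adjusted p = 1.44e-06 by limma). The peptidase gene Tpp1 fell by 0.71 and the cholesterol exporter gene Npc1 by 0.64, while the cathepsin gene Ctsl rose by 0.63. The other that rose was the cathepsin gene Ctsb (0.40).

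Receptors and transporters carried by these routes moved in both directions. Of 13 cargo genes measured, 4 rose (30.8%) and 3 fell (23.1%), with a median of 0.21. Among all genes, 13.4% rose and 14.5% fell. Most of the list lay in the brightest level quartile, where 13.5% of all genes rose and 28.1% fell. The share of cargo genes that fell was thus not above that of genes of like level. With arrays centred on their medians 3 rose and 4 fell, and with cyclic loess 5 rose and 3 fell. The growth factor receptor gene Egfr rose 2.05-fold (9.89 ± 0.0396 with FR and 8.85 ± 0.0735 with DMSO, adjusted p = 5.63e-06 by limma), and the sorting receptor gene Sorcs1 rose by 1.02 on the log2 scale, with a DMSO mean within the background range. The same holds for the sorting receptor gene Sorl1, which rose by 0.28 with a DMSO mean of 5.62. The TGF-β receptor gene Tgfbr2 rose by 0.52, while Sorcs2 fell by 0.71, Wls by 0.40 and the glucose transporter gene Slc2a1 by 0.34. Igf2r, the mannose 6-phosphate receptor gene that retromer returns to the Golgi, had a log2 change of 0.13 (adjusted p = 0.332 by limma).

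**Figure D5:**
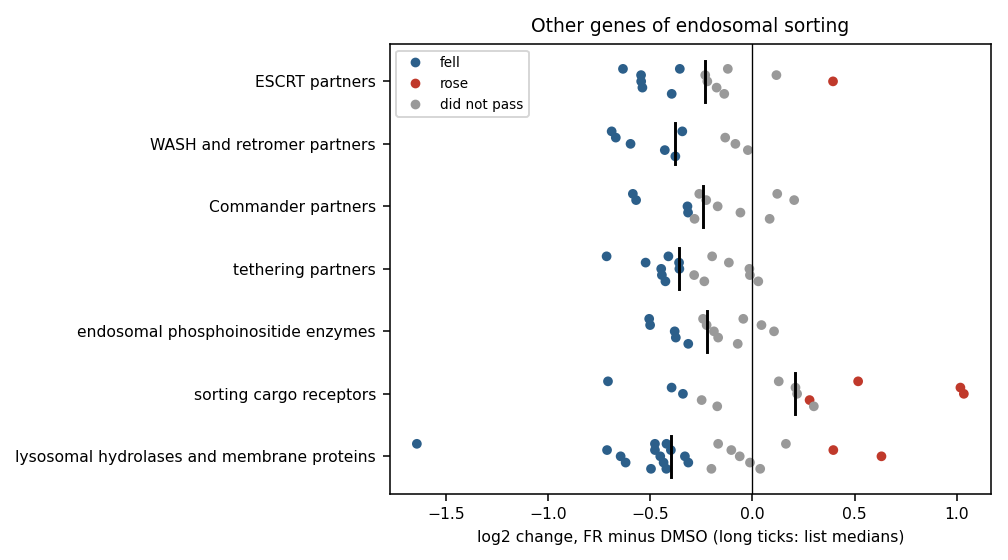
Each point is 1 gene outside the Vps, Snx and Chmp families, placed by its log2 change, FR minus DMSO, with list medians as long ticks. Medians run from -0.40 for lysosomal genes to -0.22 for phosphoinositide enzymes, and the cargo list alone has a median above 0, at 0.21.

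Markers of several cell types moved with the treatment. Of all genes tested, 13.4% rose and 14.5% fell. Of 12 keratinocyte markers 9 rose (75%) and 0 fell. The sum of their log2 values was 82.8 to 84.5 on FR arrays and 71.7 to 72.6 on DMSO arrays. Such sums, also given for other lists below, depend on the number of genes. Opposite changes cancel in them. Krt1 and Epcam were in the background range, and Krt15 and Dsg3, which rose, were in it in DMSO. Adipocyte markers rose in 6 of 7 cases (59.6 to 60.6 with FR and 47.9 to 48.5 with DMSO). Cidec was in the background range, and Adipoq and Cd36, which rose, were in it in DMSO. Skeletal muscle markers rose in 8 of 10 (70.6 to 71.4 with FR and 60.8 to 62.3 with DMSO). Des was in the background range, and Myog, which rose, was in it in DMSO. Of 10 fibroblast markers 5 rose and 4 fell (106.1 to 106.7 with FR and 105.2 to 105.6 with DMSO), and all 10 were above the background range. Of 8 endothelial markers 3 rose (37.5%), of 8 immune markers 2 rose (25%), and 6 of the 8 in each list were in the background range. Of the endothelial markers that rose, Tek and Emcn were in that range in both groups and Erg in DMSO, and of the immune markers that rose, Fcer1g was in it in both groups. Of 8 melanocyte markers 3 rose and 1, Mitf, fell. Dct, Tyr and Kit were in the background range, and of the 3 that rose Kit was in it in both groups and Tyrp1 in DMSO. The part of these cell types in the changes of the sorting genes was not tested.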

How the data were processed

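Total RNA was labelled as biotinylated cRNA and hybridised to one-colour Affymetrix arrays, per the labels' protocols. The deposited table holds log2 values that the authors made by RMA in the oligo package, per the submitters' processing notes, whose versions no source used here gives. RMA sets all arrays to a common scale, so levels are relative. Of 35556 probe sets, 21789 had 1 symbol in the platform annotation, and 1 probe set per gene, the brightest, gave 19938 genes. Arrays were grouped by title.

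The test was limma 3.58.1, run in R 4.3.3 (group as the only term, Benjamini-Hochberg over all genes, threshold 0.05), after a check of the script on simulated data. In that check, with 200 changed genes, 51% of the log2 changes of 0.5 and 100% of those of 1 were recovered. The data gave 5559 calls, far more than 200, so these recovery shares need not hold for the data. A gene that did not pass is still not shown to be unchanged. Array medians lay between 6.01 and 6.07 in FR and between 5.98 and 6.00 in DMSO. The number of arrays limits the precision. The members, the lists, the pairs and the rule for named genes were chosen with earlier results of these data known. Per-array values are given for the 16 members with the largest changes among those that passed, the retromer genes and Snx18, and pathway lists name up to 4 members by size. Ctsb, Mvb12b, Sorl1, Wls, Slc2a1, Igf2r, Ehd1, Washc1, Washc3 and single cell type markers were named after their values were seen. The split by level quartile was also chosen then. Level quartiles and the background level come from the same values. Related probe sets can share signal. Protein sequences were not used here. The labels do not say that the replicate numbers pair the arrays, and none was seen: the deviations of same-numbered arrays correlated at -0.07, 0.05 and -0.03 for numbers 1, 2 and 3. With 3 arrays per group, this check cannot exclude a weak pairing or one limited to some genes.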

Additional observations from a re-analysis of the deposited data

How the results depend on the processing

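The alternatives were 3 further normalizations, dim genes left out, probe sets of a gene averaged, 2 other variance estimates, array weights, a replicate block, and each of the 6 arrays left out in turn. Of the 36 members that fell, 24 passed as lower under all 15 alternatives and 27 whenever 1 array was left out. The members lost under at least 1 alternative were Chmp3, Chmp4b, Snx4, Snx11, Snx12, Snx33, Vps4a, Vps11, Vps29, Vps33a, Vps33b and Vps45. No member that passed changed direction under any of the alternatives. Of the 38 members that did not pass, 28 did not pass under any alternative either. The number of members that fell was 30 with quantile normalization, 29 with cyclic loess, 41 with arrays centred on their medians, 41 with dim genes left out, 42 with a variance trend and robust moderation and 27 with ordinary variance. The number that rose was 2 with quantile normalization, cyclic loess, dim genes left out or a trend, where Vps37a joined Snx18, and 0 with ordinary variance. Ordinary variance gave 3364 changed genes in all, against 5559, and 34 changed genes of the pathway lists, against 53. With 1 array left out, 28 to 36 members fell, 0 or 1 rose, 4033 to 5914 genes changed and 42 to 60 genes of the pathway lists did. Centring gave 1880 genes higher and 3447 lower in all, against 2671 higher and 2888 lower. With the replicate block, 30 members fell, 29 of them the same, 1 rose and 4977 genes changed. No label states that the numbers pair the arrays, so whether this fit describes the design better cannot be told. The pairs and promoter counts were not recomputed under the alternatives.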
